A study of Homo sapiens with 8 samples.

Results

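The genes of the LSD1-CoREST complex were examined in RNA-seq data of SW1990 cells, an established human pancreatic adenocarcinoma cell line. The members were chosen by name: the demethylase KDM1A (LSD1) and its paralog KDM1B (LSD2), the CoREST scaffolds RCOR1, RCOR2 and RCOR3, the deacetylases HDAC1 and HDAC2, the histone tail reader PHF21A, and the recruiting factors GFI1 and INSM1. All 10 were listed among the 38637 genes with counts. The 4 groups held 2 libraries each. Vector cells carried the empty vector and EBF2-OE cells overexpressed the transcription factor EBF2. Vehicle cells received the solvent, and GSK-LSD1 cells received GSK-LSD1, a small-molecule inhibitor of the KDM1A enzyme, at a labelled dose of 2000 µM. The text of the study gives no dose for the sequenced cells, and its Western blots of SW1990 cells used lower doses of the inhibitor.

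KDM1A is an amine oxidase that removes methyl groups from mono- and dimethylated H3K4, the histone mark that the study follows through EBF2. It needs a CoREST scaffold to act on nucleosomes, and the same scaffold holds HDAC1 or HDAC2, so that deacetylation and demethylation take place in a single complex. PHF21A reads unmethylated H3K4, and SNAG-domain factors such as GFI1, INSM1 and SNAI1 bring the complex to their target genes. The complex is best known for silencing neuronal genes in other cells. The comparisons asked whether the RNAs of the complex itself moved when EBF2 was raised or when KDM1A was inhibited.

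The libraries held 20453362 to 27054876 counts on genes. EBF2 stood at 285 and 4019 CPM (counts scaled by library size) in the EBF2-OE libraries and at 1.32 and 1.18 in the Vector libraries, so the EBF2-OE libraries differed widely in the gene they were made to express. The labels do not say whether the libraries of a group came from separate cultures, and the p-values measure only the spread between these libraries. That spread, the biological coefficient of variation, was 19% in EBF2-OE against Vector and 5.87% in GSK-LSD1 against Vehicle. Of 7 ductal epithelial markers, KRT7, KRT8, KRT18 and MUC1 were high, between 123 and 3200 TPM (a length-scaled level), whereas KRT19, EPCAM and CDH1 did not exceed 1.57 TPM in any library.

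Promoter sequence was matched in RefSeq (GRCh38.p14) for 8 of the 10 members, as the 250 bases before the annotated start. KDM1A and KDM1B are shown because their RNAs moved in opposite directions in GSK-LSD1 cells, and HDAC1 because its promoter alone among the 8 held the EBF core, TCCC and GGGA with any 2 bases between them. Capitals mark the GC box (GGGCGG, either strand) in KDM1A and KDM1B and the EBF core in HDAC1. Of the 250 bases, only the first 200 are printed for KDM1A and HDAC1 and the first 150 for KDM1B. KDM1B held 3 GC boxes over its 250 bases, not all of them in the printed part. The stretches lie on the plus strand at chr1:23019218-23019417 for KDM1A, chr6:18155172-18155321 for KDM1B and chr1:32291833-32292032 for HDAC1.
KDM1A: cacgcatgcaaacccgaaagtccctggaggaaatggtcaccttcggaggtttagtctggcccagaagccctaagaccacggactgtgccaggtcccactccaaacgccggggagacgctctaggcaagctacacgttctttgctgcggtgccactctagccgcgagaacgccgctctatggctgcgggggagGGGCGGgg
KDM1B: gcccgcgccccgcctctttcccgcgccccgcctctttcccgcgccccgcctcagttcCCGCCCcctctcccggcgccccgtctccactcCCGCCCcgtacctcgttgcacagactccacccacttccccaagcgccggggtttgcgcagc
HDAC1: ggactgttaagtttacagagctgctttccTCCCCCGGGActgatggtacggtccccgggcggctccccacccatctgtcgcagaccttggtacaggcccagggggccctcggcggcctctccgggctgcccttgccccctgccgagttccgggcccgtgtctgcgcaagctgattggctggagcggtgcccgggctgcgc

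The member promoters were rich in G and C. Their median GC content was 72.6%, beside 58.0% over all 27305 promoters of the table, and their median number of CG dinucleotides was 26.5, beside 11. A GC box lay in 7 of the 8, HDAC2 being the exception, and in 42.3% of all promoters. The EBF core was present in 1.08% of all promoters. A TATA box (TATAAA, either strand) was found in none of the 8 and in 11.1% of all. The GC box and the EBF core were searched on both strands, and a match describes letters only.

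The RNA levels of the members spanned the range from abundant to nearly undetected, and their order was much the same in every group. Levels of different genes were compared as TPM, the authors' counts divided by gene length and library total. HDAC1 was highest (237 to 284 TPM over the 8 libraries), followed by KDM1A (119 to 177 TPM). RCOR1 (27.1 to 46.5), HDAC2 (28.9 to 34.8) and PHF21A (21.2 to 26.3) formed a middle tier, and KDM1B lay below them at 11.5 to 16.9 TPM.

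RCOR2 (5.17 to 12.7 TPM) and RCOR3 (7.19 to 9.62 TPM) were the low scaffolds, and GFI1 stood at 1.52 to 2.55 TPM. INSM1, a factor of neuroendocrine cells, had 2 counts and 1 count in the Vehicle libraries and 0 counts in the other 6, where 0 allows up to 3 counts. It was too low to test, so 9 of the 10 members entered the comparisons. The ranges of RCOR2 and RCOR3 overlapped in Vector and EBF2-OE but not in Vehicle and GSK-LSD1, and those of HDAC2 and RCOR1 overlapped in GSK-LSD1. RCOR1 ranked above HDAC2 in Vector and EBF2-OE and below it by mean in Vehicle and GSK-LSD1. The mean TPM of KDM1A exceeded that of 97.0% of the listed genes.

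**Figure D1:**
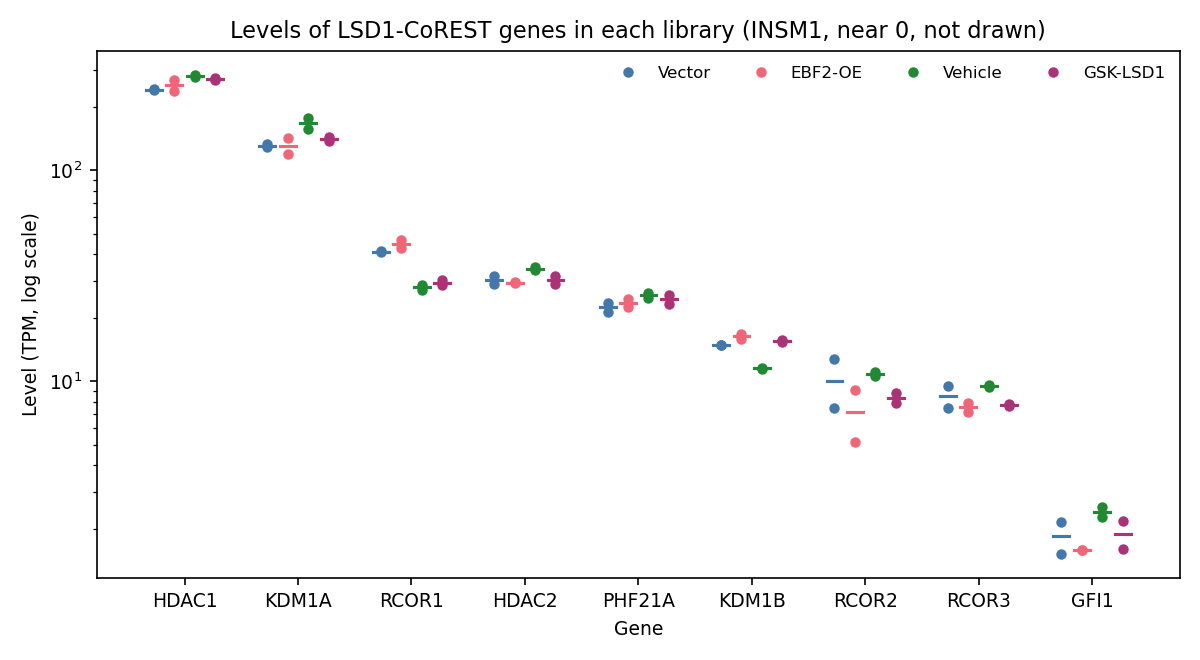
TPM (log axis) of 9 members in each library, coloured by group, with points for libraries and bars for group means. HDAC1 and KDM1A sit above 100 TPM, KDM1B is lowest in the Vehicle libraries, and RCOR1 separates the Vector and EBF2-OE libraries from the others.

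Treatment with GSK-LSD1 was accompanied by a modest rise of KDM1B and small decreases of KDM1A and RCOR3. In edgeR (quasi-likelihood, p adjusted by Benjamini-Hochberg), 3 of the 9 tested members passed an adjusted p of 0.05, where 18.7% of all 16059 genes tested passed it. Of the 3 members 1 was higher, as were 9.86% of all genes, and 2 were lower, as were 8.87%. None of the 3 changed by more than 1.5-fold, whereas 4.57% of all genes were called with a change above 1.5-fold. The median log2 fold change of the 9 members was -0.14, beside -0.01 over all genes tested. At an unadjusted p under 0.05 there were 5 of the 9 members, against 32.7% of all genes.

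KDM1B, the flavin-dependent demethylase that acts with GLYR1 on H3K4 in gene bodies, maps to chr6:18155388-18223854 (hg38, plus strand). Its level was 11.5 and 11.6 TPM in Vehicle and 15.6 and 15.4 TPM in GSK-LSD1. The libraries of each group lay close together and the groups did not overlap. The fold change was 1.38 (95% interval 1.22 to 1.57), or 0.47 ± 0.0824 (SE) on the log2 scale, with an edgeR adjusted p of 0.00339. The rise was called with any single library left out, with log2 values of 0.44 to 0.50. It missed the threshold in a single fit over all 8 libraries, which takes its spread from the more variable EBF2-OE and Vector libraries as well (log2 0.47, edgeR adjusted p = 0.0867).

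KDM1A, the enzyme that GSK-LSD1 inhibits, maps to chr1:23019443-23083691 (hg38, plus strand). Its level was 177 and 158 TPM in Vehicle and 138 and 144 TPM in GSK-LSD1. Both GSK-LSD1 libraries lay below both Vehicle libraries, and Vehicle 1 stood apart from Vehicle 2. The fold change was 0.861 (95% interval 0.780 to 0.950, log2 -0.22 ± 0.0644 SE), with an edgeR adjusted p of 0.0403. Its size rested on Vehicle 1: the log2 value was -0.11 without that library (edgeR adjusted p = 0.326) and -0.31 without Vehicle 2. The call was also lost without GSK-LSD1 1 (adjusted p = 0.193 in edgeR), without GSK-LSD1 2 (0.142) and in the fit of all 8 libraries (0.454).

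Among the scaffolds, RCOR3 (chr1:211259366-211316385, plus strand) was the only called member. It measured 9.44 and 9.62 TPM in Vehicle and 7.84 and 7.64 TPM in GSK-LSD1, without overlap. The fold change was 0.832 (95% interval 0.733 to 0.945), with an edgeR adjusted p of 0.0481. That call was narrow. It was lost in DESeq2 (adjusted p = 0.159), without the low-count filter (0.0608 in edgeR), in the fit of all 8 libraries (0.423) and whenever 1 library was left out, while the log2 value stayed between -0.30 and -0.23.

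RCOR2 (chr11:63911230-63917164, minus strand) had a lower value in GSK-LSD1 that did not pass. It measured 11.1 and 10.6 TPM in Vehicle and 7.94 and 8.80 TPM in GSK-LSD1, a fold change of 0.790 (95% interval 0.666 to 0.938, edgeR adjusted p = 0.0581). Without Vehicle 2 it passed (edgeR adjusted p = 0.0342). RCOR1 (chr14:102592593-102730572, plus strand) measured 28.6 and 27.1 TPM in Vehicle and 28.5 and 30.3 TPM in GSK-LSD1. These TPM ranges overlapped. In CPM the groups did not, with 64.8 and 60.0 in Vehicle and 66.1 and 68.5 in GSK-LSD1. The fold change of RCOR1 was 1.08 (95% interval 0.978 to 1.19, edgeR adjusted p = 0.268).

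The deacetylases did not pass the test. HDAC1 (chr1:32292083-32333628, plus strand) measured 277 and 284 TPM in Vehicle and 267 and 273 TPM in GSK-LSD1. Its fold change of 0.986 carried the narrowest interval of the 9 members, 0.918 to 1.06. HDAC2 (chr6:113933028-113971148, minus strand) measured 33.6 and 34.8 TPM in Vehicle and 31.7 and 29.0 TPM in GSK-LSD1, with a fold change of 0.909 (95% interval 0.829 to 0.996, edgeR adjusted p = 0.136). HDAC2 overlaps the antisense gene HDAC2-AS2, which had at most 7 counts in any library.

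PHF21A (chr11:45929319-46121454, minus strand) measured 26.3 and 24.96 TPM in Vehicle and 23.3 and 25.7 TPM in GSK-LSD1, with overlapping groups and a fold change of 0.978 (95% interval 0.889 to 1.08). GFI1 (chr1:92473043-92486925, minus strand), a SNAG-domain repressor of blood and neuroendocrine lineages, measured 2.55 and 2.26 TPM in Vehicle and 2.17 and 1.60 TPM in GSK-LSD1. With 76 to 152 counts per library over the whole series, GFI1 was measured less precisely, and its fold change of 0.806 had a 95% interval of 0.612 to 1.06 (edgeR adjusted p = 0.264). Both intervals included 1, which does not show that the levels were equal.

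Cell type markers moved in the same comparison. The summed level of the 7 ductal markers was 7119 to 7231 TPM in Vehicle and 5318 to 5360 TPM in GSK-LSD1. In edgeR 3 of the 5 tested were called lower, where 8.87% of all genes were called lower and 9.86% higher. Those called were the keratins KRT7 (0.620-fold), KRT18 (0.733-fold) and KRT8 (0.811-fold). MUC1 (1.12-fold) and CDH1 (1.15-fold) had higher values and were not called. The 5 fibroblast markers summed to 54.8 to 55.8 TPM in Vehicle and 59.9 to 62.4 TPM in GSK-LSD1, with 2 called higher. PDGFRB had a lower value (0.859-fold, edgeR adjusted p = 0.0565) and was not called. The 3 leukocyte markers summed to 11.0 to 13.4 TPM in Vehicle and 16.8 to 18.1 TPM in GSK-LSD1, nearly all of it CD68, with CD3E at 0 in every library and PTPRC at no more than 0.122 TPM. CD68 was called higher (1.47-fold, edgeR adjusted p = 0.0117). The CD68 call was lost without either GSK-LSD1 library, and the fibroblast calls, COL1A1 and COL1A2, without GSK-LSD1 1. In the fit of all 8 libraries CD68 was not called (edgeR adjusted p = 0.280), and of all the markers called here only KRT7 still was (0.0204). The 3 endothelial markers summed to 4.88 to 5.02 and 2.63 to 2.79 TPM, and CDH5 was called lower (0.511-fold, edgeR adjusted p = 0.00150). The part of the cell type markers in the values of KDM1A, KDM1B and RCOR3 was not tested.

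**Figure D2:**
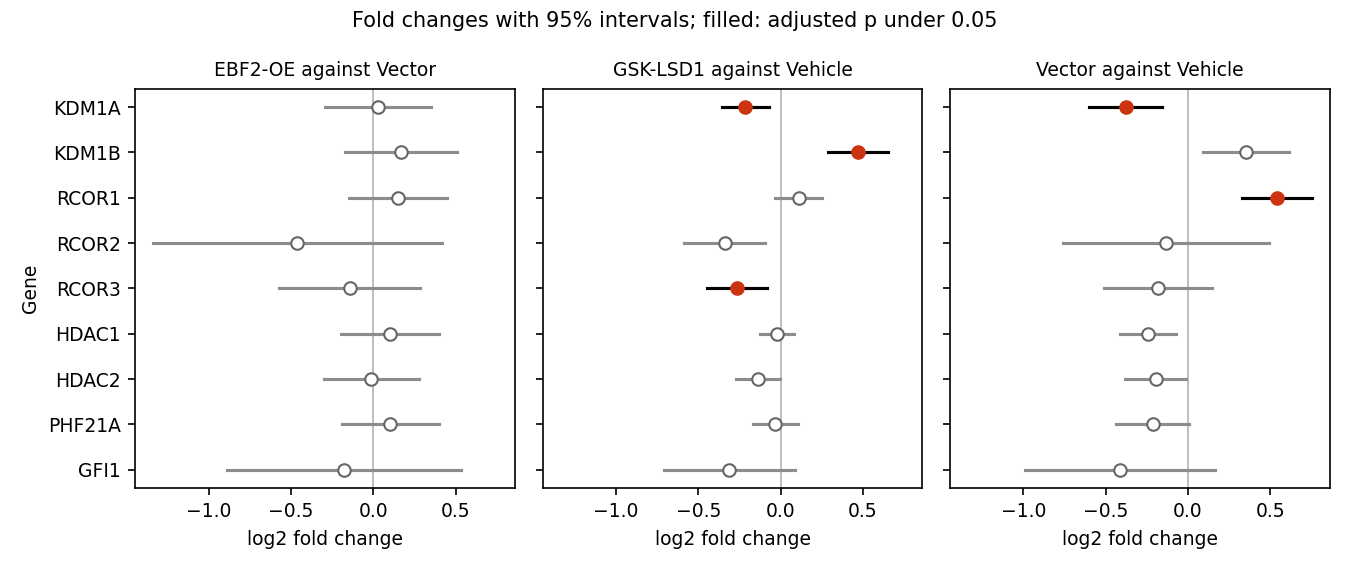
Log2 fold change of 9 members in each comparison, with 95% intervals from edgeR as lines and called members (adjusted p under 0.05) filled. KDM1B at 0.47 is the only called member above 0 in GSK-LSD1 cells, no member is called in EBF2-OE cells, and the intervals of EBF2-OE against Vector are wider than those of GSK-LSD1 against Vehicle.

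Overexpression of EBF2 was not accompanied by a called change in any member. With the same edgeR test, 0 of the 9 tested members passed, and 0% of the 15560 genes tested did so. EBF2 itself, 1722-fold higher in EBF2-OE, was not called either (edgeR adjusted p = 0.9998). The absence of calls therefore does not show that the members were unchanged. None of the 9 had an unadjusted p under 0.05, which 1.34% of all genes had, and DESeq2 called 0 members and 7 genes in all. The members' median log2 fold change was 0.03, beside 0.00 over all genes. Fold changes ran from 0.726 for RCOR2 to 1.12 for KDM1B.

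KDM1A measured 133 and 129 TPM in Vector and 143 and 119 TPM in EBF2-OE. The EBF2-OE libraries lay on either side of the Vector libraries, EBF2-OE 3, with the more EBF2, being the lower. The fold change was 1.02 with a 95% interval of 0.816 to 1.28, so a change of the size seen in GSK-LSD1 cells lay inside the interval. KDM1B measured 14.9 in both Vector libraries and 16.9 and 15.9 TPM in EBF2-OE, with a fold change of 1.12 (95% interval 0.886 to 1.42). Both EBF2-OE libraries were above both Vector libraries in KDM1B, by less than the test could tell from the spread.

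Of the scaffolds, RCOR1 measured 41.4 and 40.9 TPM in Vector and 42.8 and 46.5 TPM in EBF2-OE (fold change 1.11, 95% interval 0.902 to 1.36). RCOR2 was the most variable member, with 12.7 and 7.46 TPM in Vector and 9.14 and 5.17 TPM in EBF2-OE. The spread of RCOR2 within either group was larger than the difference between the groups, and the 95% interval of its fold change ran from 0.395 to 1.33. RCOR3 measured 9.54 and 7.51 TPM in Vector and 7.19 and 7.89 TPM in EBF2-OE (fold change 0.905, 95% interval 0.673 to 1.22).

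HDAC1, whose promoter holds the EBF core shown above, measured 239 and 242 TPM in Vector and 269 and 237 TPM in EBF2-OE. The groups overlapped, with a fold change of 1.07 (95% interval 0.874 to 1.32). HDAC2 measured 31.6 and 28.9 TPM in Vector and 29.3 and 29.5 TPM in EBF2-OE (fold change 0.992, 95% interval 0.813 to 1.21). PHF21A measured 23.6 and 21.2 TPM in Vector and 24.6 and 22.5 TPM in EBF2-OE, and GFI1 measured 2.16 and 1.52 against 1.59 and 1.58 TPM. Their fold changes were 1.07 and 0.884, each with an interval that included 1.

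An effect called in GSK-LSD1 cells and not in EBF2-OE cells is not thereby shown to differ between them, so the difference of the log2 fold changes was tested in a fit of all 8 libraries. It was called for 0 of the 9 members and for 0% of 16558 genes by edgeR. At an unadjusted p under 0.05 there were 0 members and 7.66% of all genes, and DESeq2 called 0 members and 96 genes. For KDM1B the effect of EBF2-OE minus that of GSK-LSD1 was -0.31 ± 0.141 (SE, edgeR adjusted p = 0.665). For KDM1A the same difference was 0.24 ± 0.152, and for RCOR3 it was 0.11 ± 0.176.

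The control groups also differed from each other in some members. Vector and Vehicle cells belong to separate experiments, and the vector, the solvent and any difference in culture or sequencing between the experiments cannot be told apart. Vector also shares its libraries with the EBF2-OE comparison and Vehicle with the GSK-LSD1 comparison. In edgeR, 2 of the 9 members passed, where 26.8% of 16019 genes did. RCOR1 was higher, as were 13.6% of all genes, and KDM1A was lower, as were 13.2%. Their median log2 fold change was -0.20, beside 0.00 over all genes tested.

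RCOR1 was higher in Vector than in Vehicle, 41.4 and 40.9 against 28.6 and 27.1 TPM. All 4 libraries of the EBF2 experiment lay above all 4 of the inhibitor experiment in RCOR1. The fold change was 1.46 (95% interval 1.26 to 1.69, edgeR adjusted p = 0.0139), the largest of any member in the 3 comparisons. KDM1A was lower in Vector, with a fold change of 0.770 (95% interval 0.660 to 0.898, edgeR adjusted p = 0.0328). Neither call held without Vehicle 1 (edgeR adjusted p = 0.134 for RCOR1 and 0.323 for KDM1A) or without Vehicle 2 (0.155 and 0.126), although the direction was kept.

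KDM1B was above Vehicle in Vector as well, at a fold change of 1.28 (95% interval 1.07 to 1.53) that narrowly missed the threshold (edgeR adjusted p = 0.0567). HDAC1 had a fold change of 0.846 (95% interval 0.752 to 0.951, edgeR adjusted p = 0.0506). The other members had fold changes between 0.751 (GFI1) and 0.912 (RCOR2). The number called moved with single libraries, from 0 without either Vehicle library to 4 without Vector 3 and 9 without Vector 2.

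The paralogs were also compared with each other within each library, and the balance of the demethylases in Vehicle lay outside that of the other groups. The TPM ratio of KDM1A to KDM1B was 15.5 and 13.7 in Vehicle and between 7.50 and 9.33 in the other 6 libraries. KDM1B made up 6.44% ± 0.529 (SD, n = 2) of the summed TPM of both demethylases in Vehicle, 9.92% ± 0.348 in GSK-LSD1, 10.2% ± 0.217 in Vector and 11.2% ± 0.853 in EBF2-OE. The share in Vehicle was below that of every other library. An exact permutation test of 2 against 2 libraries cannot give a two-sided p under 0.333, the value it gave for the KDM1B share in each comparison.

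Among the CoREST scaffolds, RCOR1 held 57.8% ± 0.745 (SD, n = 2) of the summed RCOR TPM in Vehicle and 64.6% ± 0.311 in GSK-LSD1. It held 69.1% ± 5.77 in Vector and 75.2% ± 4.03 in EBF2-OE. The Vector and EBF2-OE libraries overlapped in that share, and the Vehicle and GSK-LSD1 libraries did not (exact permutation p = 0.333, the smallest possible). KDM1A exceeded the summed scaffolds 3.61- and 3.34-fold in Vehicle, 3.12- and 3.08-fold in GSK-LSD1, and 1.996- to 2.42-fold in the Vector and EBF2-OE libraries. The ratio was thus lower in all 4 libraries of the EBF2 experiment than in all 4 of the inhibitor experiment.

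HDAC1 made up 88.3% to 90.4% of the summed TPM of the deacetylases in every library. The HDAC1 to HDAC2 ratio depended on the gene length, 2501 nt for HDAC1 and 10078 nt for HDAC2 in the authors' table. It was 7.57 to 9.42 in TPM and 1.88 to 2.34 in raw counts.

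**Figure D3:**
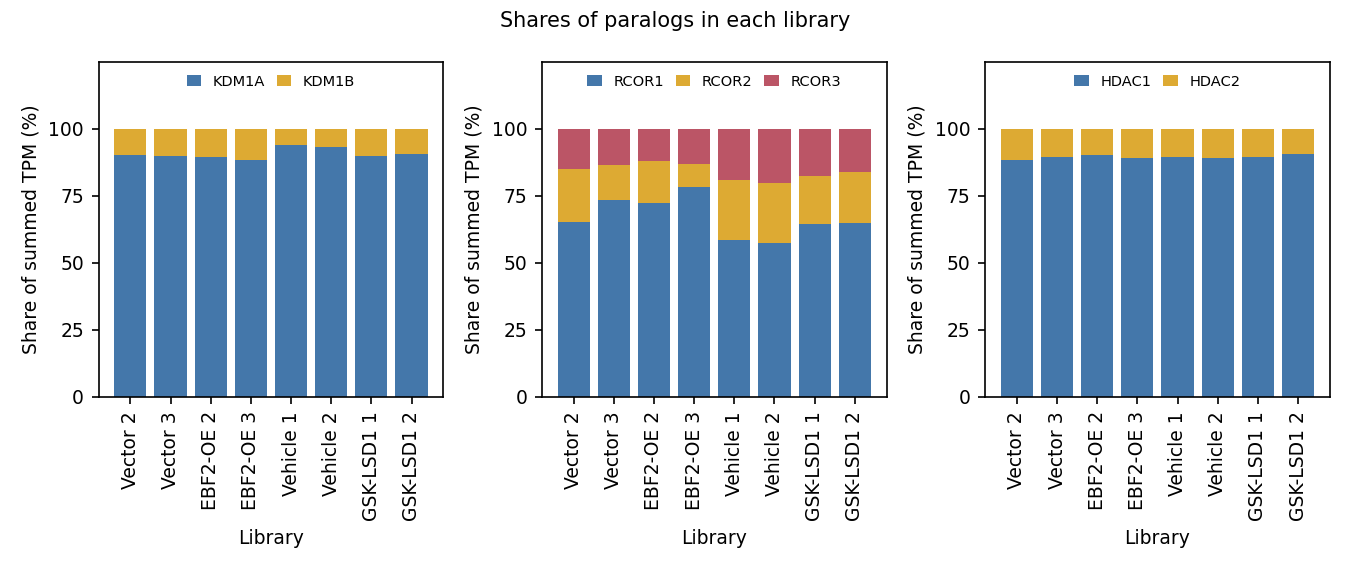
Share of each paralog in the summed TPM of its family, in percent, for each of the 8 libraries as stacked bars. KDM1B takes 6.07% and 6.82% in the Vehicle libraries and more in the other 6, RCOR1 takes the largest part of the scaffolds throughout, and HDAC1 takes 88.3% to 90.4% of the deacetylases.

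Of 10 other CoREST subunits, all tested, edgeR called 1 lower and none higher in GSK-LSD1 cells, where 8.87% of all genes tested were called lower and 9.86% higher. It was HMG20B, a DNA-binding subunit of the complex and the most abundant of the list, with 1524 and 1353 TPM in Vehicle and 1217 and 1181 TPM in GSK-LSD1 (fold change 0.853, adjusted p = 0.0246). The HMG20B call was lost without Vehicle 1, where the log2 value moved from -0.23 to -0.12, and without either GSK-LSD1 library. Of the KDM1B partners, NSD3 was called lower (fold change 0.892, edgeR adjusted p = 0.0490), at the edge of the threshold, and GLYR1 was not called.

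HDAC1 and HDAC2 also serve other complexes. Among 11 NuRD subunits, 3 were called lower and none higher, beside 8.87% and 9.86% of all genes. They were MTA1 (0.739-fold, edgeR adjusted p = 0.000696), CHD3 (0.873-fold, 0.0134) and GATAD2B (0.843-fold, 0.0269). The CHD3 call was lost without Vehicle 1 or GSK-LSD1 1, and the GATAD2B call without GSK-LSD1 1. MTA1 measured 99.99 and 94.7 TPM in Vehicle and 66.6 and 74.0 TPM in GSK-LSD1. Of 13 other class I deacetylases and scaffolds, MIER2 was called lower (0.830-fold, edgeR adjusted p = 0.0426) and none higher. The MIER2 call was lost in DESeq2 (adjusted p = 0.140), without the low-count filter (0.0508 in edgeR) and in the fit of all 8 libraries (0.437). It was also lost whenever 1 library was left out, while the log2 value of MIER2 then ran from -0.31 to -0.22.

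Of 13 other recruiting factors, 7 could be tested and 3 were called, where 18.7% of all genes tested were called. The SNAG-domain factors SNAI1 and SNAI2, repressors known from epithelial-mesenchymal transition, rose 1.31-fold (edgeR adjusted p = 0.0183) and 1.45-fold (0.0271), and the repressor PRDM1 fell to 0.676-fold (0.000902). SNAI1 measured 26.0 and 27.7 TPM in Vehicle and 31.8 and 37.3 TPM in GSK-LSD1. PRDM1 measured 13.1 and 12.8 TPM in Vehicle and 7.93 and 9.22 TPM in GSK-LSD1. The SNAI2 call was lost in DESeq2 (adjusted p = 0.125) and without Vehicle 2 (0.0875 in edgeR), GSK-LSD1 1 (0.118) or GSK-LSD1 2 (0.150), and the SNAI1 call without GSK-LSD1 2 (0.138).

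The lists of neuronal genes repressed by REST and of endocrine cell genes held low and high transcripts. Of 22 neuronal genes repressed by REST, 11 stayed below 1 TPM in every library, and of 12 endocrine cell genes 9 did, as did 57.0% of all listed genes. L1CAM (229 to 397 TPM) and TUBB3 (102 to 433 TPM) were the highest of the neuronal list. Among the 11 tested neuronal genes, TUBB3 was called higher (1.41-fold, edgeR adjusted p = 0.000185) and CHRM4 lower (0.547-fold, 0.0224), and the median log2 fold change was -0.03. Of all genes tested 9.86% were called higher and 8.87% lower. The CHRM4 call was lost in DESeq2 (adjusted p = 0.0828). Of 3 tested endocrine genes, PCSK1, a prohormone convertase, was called higher. It measured 1.88 and 2.30 TPM in Vehicle and 3.68 and 3.87 TPM in GSK-LSD1, a fold change of 1.84 (95% interval 1.47 to 2.31, edgeR adjusted p = 0.00239).

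Over these lists 12 of 57 tested genes were called in GSK-LSD1 cells, 4 higher and 8 lower, beside 18.7% of all genes. The number was 0 in the fit of all 8 libraries, 8 in DESeq2 and without Vehicle 1, and 6 without GSK-LSD1 1 or GSK-LSD1 2. MTA1, PRDM1, TUBB3 and PCSK1 were called with any single library left out. In EBF2-OE cells edgeR and DESeq2 each called 0 genes of the lists, and 1 of the 58 tested, STMN3 (named after its value was seen), had an unadjusted p under 0.05 in edgeR. HMG20B had a fold change of 1.02 there (95% interval 0.807 to 1.28), SNAI1 of 1.32 (0.706 to 2.45) and TUBB3 of 1.33 (0.870 to 2.02).

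Between the controls 19 of 57 tested genes of the lists were called, 10 higher and 9 lower in Vector, beside 26.8% of all genes. HMG20B (0.641-fold), CTBP1 (0.663-fold), MTA1 (0.544-fold), RBBP7 (0.795-fold), MBD3 (0.709-fold), CHRM4 (0.474-fold) and PAX6 (0.640-fold) were lower in Vector than in Vehicle. RREB1 (1.56-fold), CTBP2 (1.22-fold), GATAD2A (1.41-fold), SNAI1 (2.21-fold), SNAI2 (3.38-fold), ZEB2 (1.81-fold), REST (1.499-fold), TUBB3 (2.54-fold) and CELSR3 (1.32-fold) were higher. GRIN1, a glutamate receptor subunit, was the lowest by fold change (0.195). It measured 0.725 and 0.604 TPM in Vector and 3.46 and 3.28 TPM in Vehicle. The number of calls depended on single control libraries, with 0 without Vehicle 1, 2 without Vehicle 2, 36 without Vector 2 and 30 without Vector 3.

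The genes with profiles closest to KDM1A were looked up by Pearson's correlation of log2 CPM over the 8 libraries, among 16557 genes. They were SRD5A1 (r = 0.992), LOC112268444 (0.978), CENPH (0.970), MMP28 (0.967) and PDF (0.966). After each group's mean was subtracted they were RRP1B (r = 0.997), PLEKHF2, WAPL, FERMT2 and TBILA, none of them among the former 5. Within the complex, PHF21A (r = 0.84) and HDAC1 (0.83) were closest to KDM1A over the 8 libraries, and RCOR1 (-0.79) and KDM1B (-0.66) farthest. With group means subtracted the value of KDM1B turned to 0.64 and that of RCOR1 to -0.10. The 8 points of each correlation fall into 4 groups that share treatment, and the values are a description. With group means subtracted, the 2 libraries of a group take equal and opposite values. Each such r therefore rests on only 4 independent values.

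**Figure D4:**
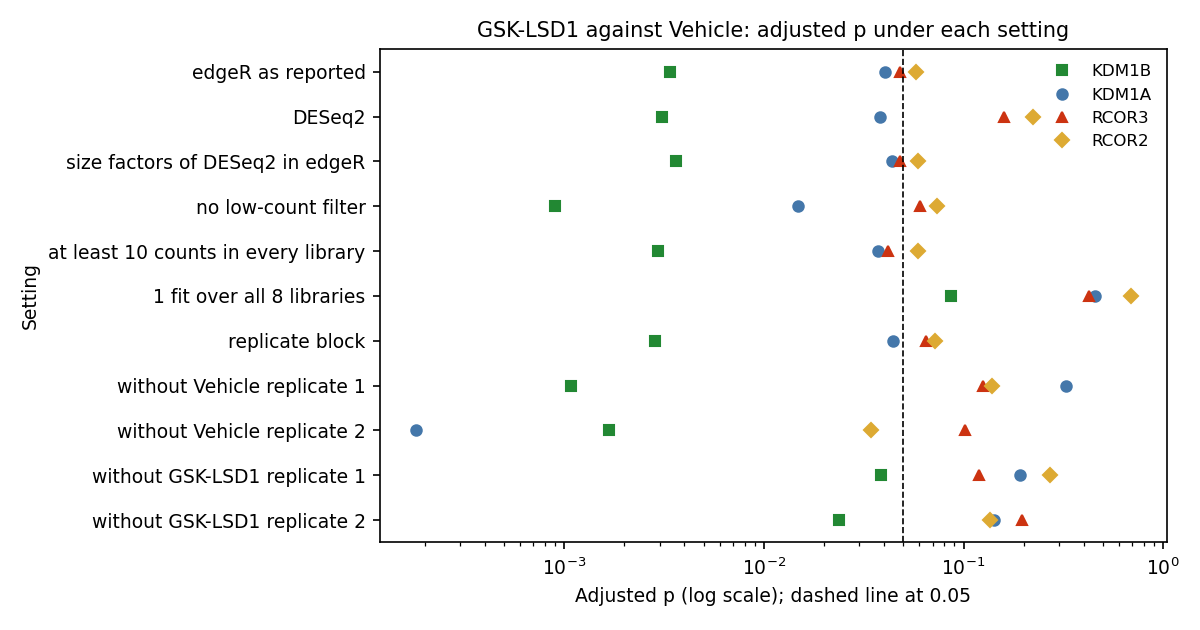
Adjusted p (log axis) of KDM1B, KDM1A, RCOR3 and RCOR2 in GSK-LSD1 against Vehicle under each way of fitting, with a dashed line at 0.05. KDM1B stays left of the line in all but the fit over all 8 libraries, and RCOR3 crosses it in most settings.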

How the data were processed

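RNA-seq of 8 SW1990 libraries was analysed. The authors aligned poly(A)-selected paired-end reads to hg38 with HISAT2 and counted them per gene with HTSeq. The authors deposited raw counts for each gene together with TPM, in which every count is scaled by gene length and by the library. Strand setting and tool versions are not given in the sources used here.

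Raw counts entered edgeR 4.0.16 under R 4.3.3 (glmQLFit and glmQLFTest, TMM, filterByExpr with a minimum count of 10, two-sided), each comparison on its own 4 libraries. Adjustment followed Benjamini-Hochberg across every tested gene, and called means an adjusted p under 0.05. SE and 95% intervals came from the test statistic. Alternatives were DESeq2 1.42.0, edgeR with the size factors of DESeq2, a filter of at least 10 counts in each library, no filter, 1 fit of all 8 libraries, the replicate number as a block and leaving out each library. The scripts were tested on simulated data.

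The members and lists were chosen with earlier results of these data known. All 10 members are named. Of each other list, called genes are named, at most 4 per comparison by smallest p, and where none was called up to 2 with the highest mean TPM. Genes like KDM1A are the 5 with the highest r. Libraries held 20453362 to 27054876 counts, and 2 per group limit the precision. Some further genes are not reported here. The reads were not analysed here.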

Additional observations from a re-analysis of the deposited data

How the results depend on the processing

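No member was called in EBF2-OE against Vector or in the difference of the effects under any alternative run (0 throughout). In GSK-LSD1 against Vehicle the 3 called members became 0 in the fit of all 8 libraries, where 0.707% of all genes were called (117, beside 3007 in the separate fit), and 1 to 3 when single libraries were left out. In Vector against Vehicle the 2 called members became 0 to 9 when single libraries were left out, while the calls among all genes went from 4294 to between 12 and 8208. A group left with 1 library was assumed to vary like the other. Values below the threshold turned direction only when a library was left out. In EBF2-OE against Vector these log2 values ran from -0.11 to 0.15 for KDM1A, from -0.28 to 0.015 for RCOR3, from -0.049 to 0.034 for HDAC2 and from -0.39 to 0.072 for GFI1. In GSK-LSD1 against Vehicle PHF21A ran from -0.085 to 0.024, in Vector against Vehicle RCOR2 from -0.53 to 0.19, and the difference of the effects from -0.019 to 0.29 for RCOR3, from -0.59 to 0.29 for RCOR2, from -0.091 to 0.39 for GFI1 and from -0.027 to 0.088 for RCOR1. Raw counts in place of TPM moved 26 of 28 paralog shares by more than the replicate spread, by construction, since lengths differ. The alternatives for the lists were chosen after seeing the data, and moved 68 of 451 counts of called list and marker genes by over 1.5 times.

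The labels give shared replicate numbers without saying what they mark. Deviations of same-numbered libraries correlated at 0.302 in EBF2-OE against Vector and -0.0067 in GSK-LSD1 against Vehicle, over 16558 genes and only 2 pairs each. With the number as a block, 0 members were called in EBF2-OE against Vector (5 genes in all, beside 0), 2 in GSK-LSD1 against Vehicle (KDM1A and KDM1B, with RCOR3 at an edgeR adjusted p of 0.0646) and 0 in the difference (34 genes in all, beside 0). No paired analysis was possible for Vector against Vehicle because the groups share 1 number. At 0 to 2 counts INSM1 was below what this depth can compare.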
